A study of Mus musculus with 6 samples.

Results

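The Wnt-driven genes of pericentral hepatocytes were followed in bulk RNA sequencing of mouse liver. They are 10 genes chosen by name: Glul, Slc1a2, Rhbg, Axin2, Lgr5, Rnf43, Znrf3, Dkk4, Tbx3 and Tcf7l2. All 10 matched a symbol exactly among the 35976 symbols of the deposited count table, and all 10 passed the filter on low counts, as did 14954 genes in all. Livers of genotype IRE1PKO were compared with livers of genotype IRE1fl, with 3 libraries of each. All mice were males on HFD, taken to stand for a high-fat diet, and their livers were taken after 4 hours of feeding that ended a fast of 16 hours. Ern1 encodes IRE1, which senses misfolded protein in the endoplasmic reticulum. What PKO stands for is not written in the labels, nor are the driver of the deletion, the strain or the age. By its title, the series concerns signalling of the unfolded protein response from the pituitary to the liver in obesity. Separate animals are not stated for the 6 libraries, and the spread behind each p-value is therefore that between libraries, which may be technical.

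Wnt proteins and R-spondins released by endothelial cells of the central vein keep beta-catenin stable in the hepatocytes next to that vein. There beta-catenin, bound to factors of the TCF family, holds on a group of genes that periportal hepatocytes keep low. Glutamine synthetase, the product of Glul, marks the innermost cells of this zone, where it removes the ammonia that the urea cycle upstream has left. Several targets of the pathway feed back on it: Axin2 rebuilds the complex that degrades beta-catenin, Rnf43 and Znrf3 remove Wnt receptors from the membrane, and Dkk4 is a secreted antagonist.

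Total counts ranged from 35776219 to 39277435 per library. In IRE1PKO livers 849 genes were called higher and 577 lower, together 9.54% of those tested. A gene was called where its p from the quasi-likelihood test of edgeR, after Benjamini-Hochberg adjustment over all tested genes, was under 0.05. Single libraries moved these totals: 653 genes were called without IRE1PKO replicate 1, 815 without IRE1PKO replicate 2, 896 without IRE1fl replicate 2 and 789 without IRE1fl replicate 3. Ern1 itself had 45.7, 36.6 and 44.2 CPM (counts scaled by library size) in IRE1PKO livers, against 61.2, 49.3 and 60.8 CPM in IRE1fl livers, a log2 fold change of -0.44 (SE 0.11, adjusted p = 0.0357). That call was lost without any one library other than IRE1fl replicate 2, and if the deletion lies outside the liver it checks no label. Of 12 hepatocyte identity genes, 11 were in the table under the listed symbol and all 11 were tested, and their summed level was 78552 to 97555 CPM in IRE1PKO livers and 81412 to 96985 CPM in IRE1fl livers. The tissue label therefore met its defining markers in every library.

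Of the 10 pericentral genes, Dkk4 and Tcf7l2 fell in IRE1PKO livers and the other 8 did not pass. Dkk4 had entered the test through its IRE1fl libraries alone, where it is high, and a gene kept in that way had to differ, so that Tcf7l2 is the call free of that limit. The share called lower over all tested genes was 3.86%, and the share called higher was 5.68%. No member was called higher in the fit reported, although Glul was called higher by edgeR in 3 of the alternative settings and by the DESeq2 Wald test. In the fit reported, 4 members had an unadjusted edgeR p under 0.05, as did 25.0% of all tested genes. Groups did not overlap for Glul, Dkk4 and Tcf7l2, which is 3 of 10 members, and they did not overlap for 31.0% of all tested genes. The median log2 fold change of the members was -0.10, against -0.0014 over all tested genes. Of the 10 log2 fold changes 4 were above 0, and no test was made over the members as a list.

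**Figure D1:**
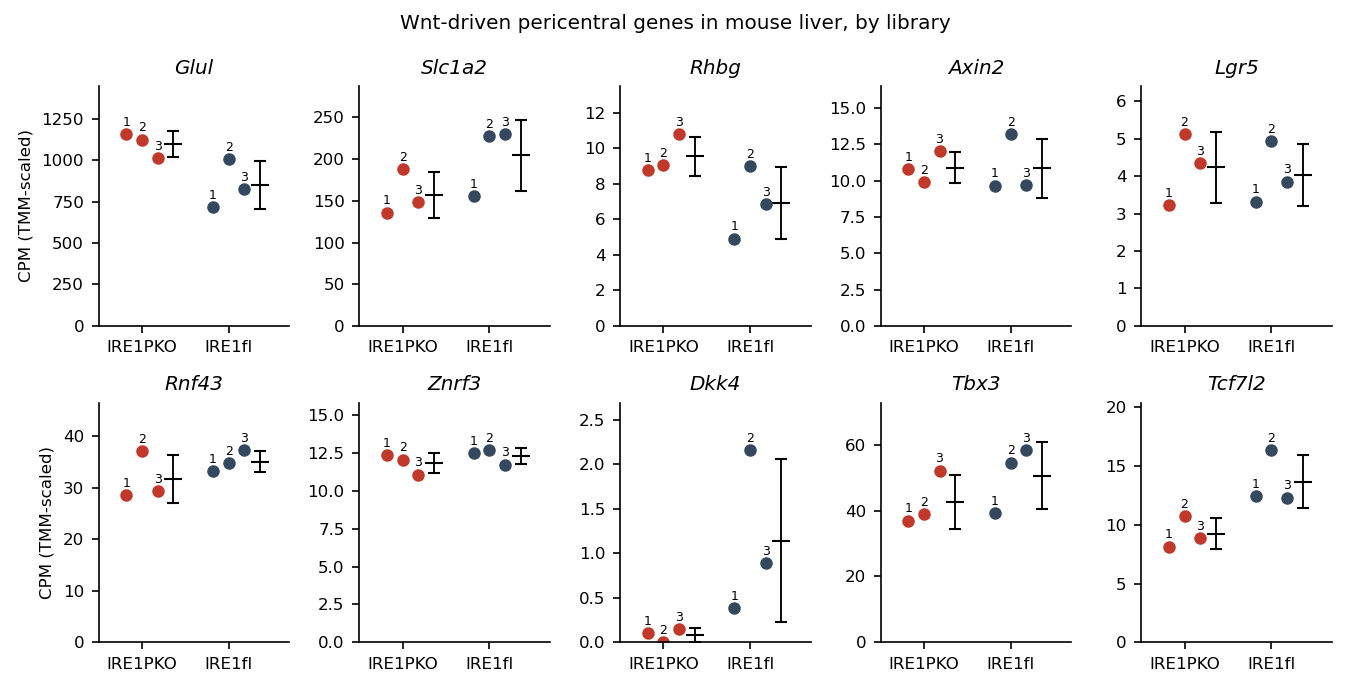
Level of each of the 10 genes in CPM (scaled by TMM, y axis from 0) in every library, with IRE1PKO libraries on the left and IRE1fl libraries on the right of each panel. Points carry their replicate number, and the bars beside them are the mean and SD of 3 libraries. Dkk4 lies between 0 and 0.147 CPM in IRE1PKO and between 0.388 and 2.16 CPM in IRE1fl, while Axin2 and Lgr5 interleave.

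**Figure D2:**
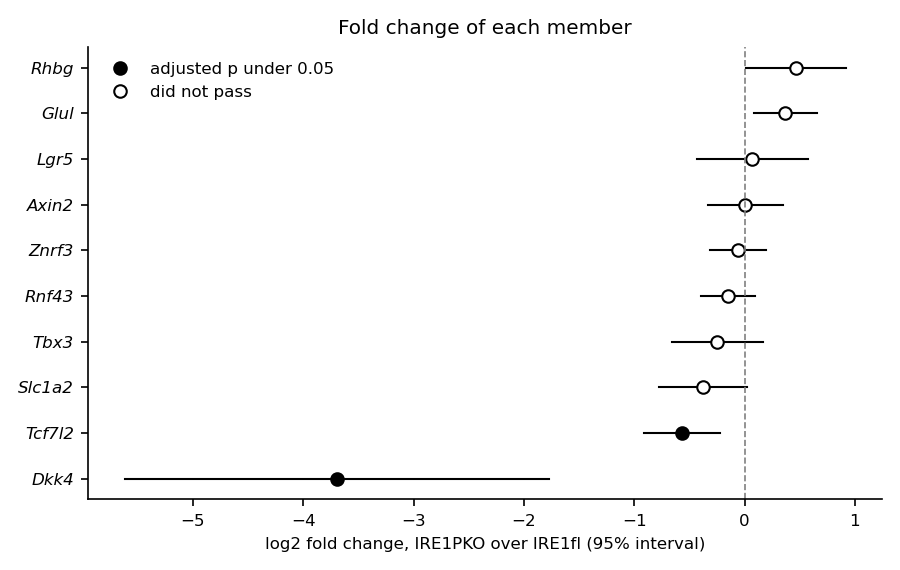
Log2 fold change of each gene, IRE1PKO over IRE1fl, with its 95% interval from the edgeR fit. Filled points passed the threshold over all genes. Dkk4 at -3.70 and Tcf7l2 at -0.56 are filled, and the intervals of Tbx3, Rnf43, Znrf3, Axin2, Lgr5 and Slc1a2 cross 0.

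None of the enzyme and transporter genes passed the threshold, and they lay on both sides of 0. Glul (chromosome 1, 153899929 to 153909723, GRCm38.p6, the same build as mm10) had 1158, 1124 and 1010.3 CPM in IRE1PKO livers, against 718, 1005 and 826 CPM in IRE1fl livers. All IRE1PKO libraries lay above all IRE1fl libraries, but IRE1PKO replicate 3 and IRE1fl replicate 2 nearly met. The means were 1097 ± 77.3 CPM in IRE1PKO and 850 ± 145 CPM in IRE1fl (SD, n = 3 each), and the log2 fold change of 0.37 (SE 0.13, 95% interval 0.08 to 0.66) missed the threshold (adjusted p = 0.103). Glul did pass without IRE1fl replicate 2, at 0.51 with an adjusted p of 0.0459, and again where only library totals were used for scaling (adjusted p = 0.0489), without the filter on low counts (0.0385) and by the DESeq2 Wald test (0.0475).

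Slc1a2 (chromosome 2, 102658239 to 102790784) encodes a glutamate transporter that supplies the substrate of glutamine synthetase, and its values lay on the other side. It had 136, 188 and 148 CPM in IRE1PKO livers, against 156, 228 and 230.2 CPM in IRE1fl livers. The groups overlapped, because IRE1fl replicate 1 lay below IRE1PKO replicate 2. The log2 fold change was -0.38 (SE 0.17, 95% interval -0.78 to 0.02, adjusted p = 0.222), and without IRE1fl replicate 1 it was -0.54 and passed (adjusted p = 0.0305). Rhbg (chromosome 3, 88242874 to 88254739), a membrane channel for ammonia, had 8.78, 9.06 and 10.8 CPM in IRE1PKO livers, against 4.90, 8.99 and 6.87 CPM in IRE1fl livers. Only IRE1fl replicate 2 came within the IRE1PKO range of Rhbg. The log2 fold change of Rhbg was 0.46 (SE 0.21, 95% interval 0.01 to 0.92) and missed the threshold (adjusted p = 0.19). It was 0.26 without IRE1fl replicate 1 and 0.70 without IRE1fl replicate 2. Another gene annotated by GENCODE on the same strand, Gm38392, shares 61.4% of the exonic bases of Rhbg, so the assignment of reads to Rhbg is uncertain. Genes on the opposite strand share 3.49% of the exonic bases of Glul, 3.796% of Axin2, 1.44% of Slc1a2 and 1.74% of Tbx3, and whether the counting used strand is not stated.

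The RefSeq promoter table held 5 of the 10 genes, Axin2, Glul, Rnf43, Slc1a2 and Tcf7l2, with 7 annotated starts. The 250 bases before each start were searched on both strands for CTTTGA, the core of the site that TCF factors bind, or its reverse complement TCAAAG. The 6-letter core was found in 1 of the 7 windows, that of Slc1a2, at 2 places, and in 13.8% of the 32851 promoter windows of all genes. The starts of Slc1a2 and Axin2 in that table lie inside the spans of those genes, so neither window covers the first bases of its gene. For Slc1a2 the window ends at 102706437, while the gene begins at 102658239. The Slc1a2 matches are shown because they are the only ones among the members, with the core in capitals and 20 bases on each side, on the strand of the gene (GRCm38.p6, plus strand; chr2:102706212-102706257, then chr2:102706341-102706386).
Slc1a2, core starting 206 bases before the start: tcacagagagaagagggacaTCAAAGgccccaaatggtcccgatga
Slc1a2, core starting 77 bases before the start: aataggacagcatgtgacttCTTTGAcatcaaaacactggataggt
The upstream match extends on the opposite strand to CTTTGAT, a full form of the site, which 3.21% of all windows hold. These matches describe letters only, and Slc1a2 itself did not pass the test.

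Among the 5 feedback and receptor genes the antagonist Dkk4 was called lower, with the limit that it entered the test through its IRE1fl libraries alone. The other 4 did not pass. Axin2 (chromosome 11, 108917828 to 108950783), often read as the general reporter of Wnt activity, had 10.8, 9.88 and 12.0 CPM in IRE1PKO livers, against 9.67, 13.2 and 9.67 CPM in IRE1fl livers. The highest Axin2 value was that of IRE1fl replicate 2 and the lowest that of IRE1fl replicate 1, so the IRE1PKO values lay inside the IRE1fl range. The log2 fold change was 0.01 (SE 0.16), with a 95% interval of -0.34 to 0.35 (adjusted p = 0.986). Changes of a size within that interval remain possible with these libraries.

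Lgr5 (chromosome 10, 115450314 to 115587780), a receptor for R-spondins, had 3.23, 5.13 and 4.35 CPM in IRE1PKO livers, against 3.32, 4.94 and 3.85 CPM in IRE1fl livers. Its libraries interleaved, with replicate 1 lowest and replicate 2 highest in both groups, and its log2 fold change was 0.07 (SE 0.23, 95% interval -0.44 to 0.57, adjusted p = 0.885). Rnf43 (chromosome 11, 87663087 to 87735539), a membrane ubiquitin ligase that removes Frizzled receptors, had 28.6, 37.0 and 29.4 CPM in IRE1PKO livers, against 33.2, 34.7 and 37.2 CPM in IRE1fl livers. The groups of Rnf43 overlapped through IRE1PKO replicate 2, and the log2 fold change was -0.15 (SE 0.11, 95% interval -0.39 to 0.10, adjusted p = 0.453). It ran from -0.27 without IRE1PKO replicate 2 to -0.08 without IRE1PKO replicate 1. Its relative Znrf3 (chromosome 11, 5276329 to 5444847) stayed within a narrow range in all 6 libraries. Znrf3 had 12.3, 12.05 and 11.0 CPM in IRE1PKO livers, against 12.5, 12.7 and 11.7 CPM in IRE1fl livers, a log2 fold change of -0.06 (SE 0.12, 95% interval -0.31 to 0.20, adjusted p = 0.804).

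Dkk4 (chromosome 8, 22623685 to 22628018), whose product blocks the LRP co-receptors of Wnt, was nearly silent in IRE1PKO livers. It had 4, 0 and 6 counts there, against 14, 76 and 33 counts in IRE1fl livers. In CPM these were 0.103, 0 and 0.147 in IRE1PKO, against 0.388, 2.16 and 0.889 in IRE1fl, and the 0 of IRE1PKO replicate 2 allows up to 0.0814 CPM, the level of 3 counts in that library, which covers counting error only. Every IRE1PKO library lay below every IRE1fl library, and the IRE1fl libraries themselves were far apart. The IRE1PKO mean was 0.0831 ± 0.0753 CPM and the IRE1fl mean 1.14 ± 0.911 CPM (SD, n = 3 each), so the IRE1PKO mean was 7.26% of the IRE1fl mean. The log2 fold change was -3.70 (SE 0.86, 95% interval -5.62 to -1.78, adjusted p = 0.026). Dkk4 passed the filter on low counts through its IRE1fl libraries alone, since the filter asks for at least 0.266 CPM in 3 libraries, and a gene kept in that way had to differ. The call was lost without IRE1PKO replicate 1 (adjusted p = 0.104), IRE1PKO replicate 2 (0.0586), IRE1fl replicate 2 (0.0886) or IRE1fl replicate 3 (0.0619), and with limma-voom (0.0671), while the log2 fold change stayed between -4.36 and -2.87.

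Of the transcription factors Tcf7l2 fell and Tbx3 did not pass. Tcf7l2 (chromosome 19, 55741797 to 55933659), the main partner of beta-catenin on DNA in liver, had 8.14, 10.7 and 8.90 CPM in IRE1PKO livers, against 12.4, 16.3 and 12.3 CPM in IRE1fl livers. The groups did not overlap, and IRE1fl replicate 2 stood above the rest. The means were 9.26 ± 1.34 CPM in IRE1PKO and 13.7 ± 2.29 CPM in IRE1fl (SD, n = 3 each), and the log2 fold change was -0.56 (SE 0.16, 95% interval -0.91 to -0.22, adjusted p = 0.0453). The call lay close to the threshold: it was lost without IRE1PKO replicate 1 (adjusted p = 0.163), IRE1PKO replicate 3 (0.0964), IRE1fl replicate 2 (0.173) or IRE1fl replicate 3 (0.0733), and with library totals as the only scaling (0.0784), a filter at a mean of 1 CPM (0.0501), limma-voom (0.057) or no robust fitting (0.0546).

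Tcf7l2 has 2 RefSeq starts in the promoter table, 153511 bases apart, and counts per gene do not separate the transcripts that begin at them. Transcripts from internal starts of TCF genes can lack the part that binds beta-catenin, so the sequences before both starts are shown, 100 bases each (GRCm38.p6, plus strand; chr19:55741710-55741809, then chr19:55895221-55895320).
Tcf7l2, first start: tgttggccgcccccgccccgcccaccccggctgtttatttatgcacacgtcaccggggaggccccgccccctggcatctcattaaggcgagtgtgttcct
Tcf7l2, internal start: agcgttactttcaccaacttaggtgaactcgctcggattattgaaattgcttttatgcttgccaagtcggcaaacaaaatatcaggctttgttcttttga
The first window is 66% G and C and the internal one 39%. Neither holds CTTTGA on either strand. Other forms of the TCF core were not searched, and the internal window holds the letters CTTTGT.

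Tbx3 (chromosome 5, 119670534 to 119684724), a T-box repressor induced by beta-catenin in liver, had 37.0, 38.97 and 52.0 CPM in IRE1PKO livers, against 39.1, 54.5 and 58.2 CPM in IRE1fl livers. Its groups overlapped, with IRE1fl replicate 1 beside the lower IRE1PKO libraries. The log2 fold change was -0.25 (SE 0.18, 95% interval -0.66 to 0.17, adjusted p = 0.446). It ran from -0.41 without IRE1PKO replicate 3 to -0.13 without IRE1fl replicate 3.

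Levels per length placed Glul far above the other members. On CPM per kilobase of exonic length from GENCODE M21, Glul was at 330.2 ± 23.3 in IRE1PKO and 256 ± 43.7 in IRE1fl (SD, n = 3 each). Slc1a2 followed with 12.0 ± 2.09 in IRE1PKO and 15.6 ± 3.22 in IRE1fl, and Tbx3 with 6.44 ± 1.24 in IRE1PKO and 7.64 ± 1.53 in IRE1fl. From Glul down to Axin2 the order in IRE1fl was Glul, Slc1a2, Tbx3, Rnf43, Rhbg and Axin2, and no library of one of these overlapped the next. In IRE1PKO livers the range of Rnf43 overlapped those of Tbx3 and of Rhbg, and the means of Rnf43 and Rhbg were 4.83 and 4.93. Axin2 was at 1.98 ± 0.196 in IRE1PKO and 1.97 ± 0.372 in IRE1fl, and in IRE1fl its range overlapped that of Tcf7l2, as that of Tcf7l2 did with Znrf3. Tcf7l2 was at 1.06 in IRE1PKO and 1.56 in IRE1fl, and Znrf3 was at 1.496 in IRE1PKO and 1.56 in IRE1fl. Lgr5 was low in both groups, at 0.413 in IRE1PKO and 0.393 in IRE1fl. Dkk4 was at 0.0632 in IRE1PKO, below every other member, and at 0.870 in IRE1fl, where its range of 0.295 to 1.64 overlapped those of Znrf3 and Lgr5.

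Single libraries took different places for different members. IRE1PKO replicate 1 was the lowest library for 5 members (Slc1a2, Lgr5, Rnf43, Tbx3 and Tcf7l2) and the highest for Glul. IRE1fl replicate 2 was the highest for 4 members (Axin2, Znrf3, Dkk4 and Tcf7l2), and IRE1fl replicate 1 the lowest for Glul, Rhbg and Axin2. No library was therefore high or low across the whole set. As a description over the 6 libraries, the genes whose centred log2 CPM lay closest to that of Glul were 4833438C02Rik, Trp53inp1 and Cyb5r3, with root-mean-square differences of 0.0426, 0.0481 and 0.0573 among 12565 genes of at least 1 CPM. Closest to Axin2 were Ackr4, Cenpa and 1110018N20Rik, at 0.0465, 0.0485 and 0.0521.

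The rest of the Wnt pathway was described through lists of ligands, receptors, inhibitors, the beta-catenin complex and other target genes. Of their 70 tested genes other than the members, 6 rose and 2 fell, which is 8 of 70, against 9.54% of all tested genes. Of 26 listed ligands and helpers of their secretion, 11 were tested and 0 were called by edgeR in the fit reported, where Wnt4 and Wnt5b, 2 of the 11, had an unadjusted p under 0.05. The DESeq2 Wald test and edgeR without the filter on low counts called both, Wnt4 as higher and Wnt5b as lower. Wnt4 was also called when scaling used library totals alone, and Wnt5b with the replicate block and without IRE1PKO replicate 3 or IRE1fl replicate 1. A further 11 had no count in any library. Wnt2, which endothelial cells of liver release, had 5.60, 4.78 and 3.45 CPM in IRE1PKO livers, against 1.80, 4.48 and 2.26 CPM in IRE1fl livers. The log2 fold change of Wnt2 was 0.69 (SE 0.34) and missed the threshold (adjusted p = 0.235), but it passed without IRE1fl replicate 2, the high IRE1fl library (1.18, adjusted p = 0.0332). Rspo3, the R-spondin of the central vein, had 4.36, 5.89 and 5.52 CPM in IRE1PKO livers, against 4.54, 4.00 and 1.99 CPM in IRE1fl livers (log2 fold change 0.58, SE 0.28, adjusted p = 0.226), and its log2 fold change was 0.30 without IRE1fl replicate 3. Wnt9b, the other central vein ligand of the list, had 1.39, 1.004 and 1.198 CPM in IRE1PKO, against 0.665, 1.305 and 0.862 CPM in IRE1fl (log2 fold change 0.34, SE 0.37, adjusted p = 0.614), and its log2 fold change ran from 0.14 without IRE1fl replicate 1 to 0.64 without IRE1fl replicate 2. All 3 of these ligand genes overlapped between groups.

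Endothelial markers differed beside these ligands. Of 20 listed markers, 5 rose (Flt4, Fcgr2b, Pecam1, Stab2 and Cdh5), against 5.68% of all tested genes. A positive log2 fold change was seen for 19 of the 20, and the median of the list was 0.37. Their summed level was 506 to 682 CPM in IRE1PKO livers and 431 to 479 CPM in IRE1fl livers, and none was at 0. Their part in the ligand values was not tested. The number of endothelial calls depended on single libraries: it was at most 1 without IRE1PKO replicate 1, IRE1PKO replicate 2, IRE1fl replicate 2 or IRE1fl replicate 3, and 9 without IRE1PKO replicate 3. In bulk tissue, a change in the number of cells of a type and a change in RNA per cell cannot be told apart.

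Of 13 tested receptors and co-receptors 1 was called, against 9.54% of all tested genes. That call was Fzd1. It had 21.0, 18.8 and 20.4 CPM in IRE1PKO livers, against 15.2, 14.4 and 13.4 CPM in IRE1fl livers, and rose by a log2 value of 0.49 (SE 0.10, adjusted p = 0.0147), a call lost without IRE1PKO replicate 1 or IRE1fl replicate 3 (adjusted p up to 0.0661). Lgr4, the widely expressed relative of Lgr5, had 48.4, 53.5 and 59.2 CPM in IRE1PKO livers, against 62.8, 68.1 and 76.2 CPM in IRE1fl livers. Its groups did not overlap, and its log2 fold change of -0.36 (SE 0.10) missed the threshold narrowly (adjusted p = 0.0501), with a range of 0.0118 to 0.184 over the alternatives. The co-receptor genes Lrp5 and Lrp6 and the Norrin and Wnt receptor gene Fzd4 had log2 fold changes of 0.32, 0.01 and 0.22, none past the threshold in the fit reported. Lrp5 did pass with the replicate block (adjusted p = 0.0271), and it ran from 0.14 without IRE1PKO replicate 1 to 0.46 without IRE1PKO replicate 3, while Fzd4 ran from 0.083 without IRE1PKO replicate 3 to 0.39 without IRE1PKO replicate 1.

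Of 6 tested inhibitors of Wnt at the cell surface 1 was called, against 9.54% of all tested genes. That call was Igfbp4, which fell. Its product binds both insulin-like growth factors and the Wnt co-receptor. It had 1713, 1753 and 1589 CPM in IRE1PKO livers, against 2035, 2310.1 and 2483 CPM in IRE1fl livers (log2 fold change -0.43, SE 0.11, adjusted p = 0.0343), a call that held without IRE1fl replicate 1 and was lost without each of the other 5 libraries (adjusted p up to 0.104). Notum, a Wnt deacylase and a target gene, was named after its values were seen. It had 33.1, 39.2 and 28.3 CPM in IRE1PKO, against 40.0, 66.4 and 42.1 CPM in IRE1fl, with groups that did not overlap, and its log2 fold change of -0.56 (SE 0.22) missed the threshold (adjusted p = 0.173). Notum did pass by the DESeq2 Wald test (0.0318) and with the replicate block (adjusted p = 0.00698), and without IRE1fl replicate 2 it was -0.29.

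Of 26 tested genes of the beta-catenin complex 1 was called, Tle3, a co-repressor of TCF factors, against 9.54% of all tested genes. Tle3 had 42.95, 44.6 and 35.2 CPM in IRE1PKO livers, against 27.5, 28.3 and 31.2 CPM in IRE1fl livers. Its log2 fold change was 0.50 (SE 0.11, adjusted p = 0.0147). The Tle3 call was lost without IRE1PKO replicate 1, IRE1PKO replicate 2 or IRE1fl replicate 2 (adjusted p up to 0.0681). Ctnnb1, the beta-catenin gene, averaged 235 ± 5.71 CPM in IRE1PKO and 254 ± 9.92 CPM in IRE1fl (SD, n = 3 each), and its log2 fold change was -0.11 with a 95% interval of -0.30 to 0.08, although its groups did not overlap. Apc, the scaffold of the degradation complex, had a log2 fold change of 0.19 (adjusted p = 0.225). The log2 fold changes of the list ran from -0.46 to 0.50 with a median of 0.03. An unadjusted edgeR p under 0.05 was found for 5 of the 26, against 25.0% of all tested genes. Ctnnbip1, an inhibitor of beta-catenin at -0.46, and Tle1, a co-repressor at -0.36, were picked once their values were known. Both were called lower without the filter on low counts and with the replicate block. Ctnnbip1 was also called lower by the DESeq2 Wald test and without IRE1PKO replicate 3, and Tle1 without IRE1fl replicate 1.

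Of 16 tested Wnt targets outside the members, 4 rose and 1 fell, against 5.68% higher and 3.86% lower over all tested genes. Jun, an AP-1 subunit, had 69.5, 67.1 and 53.9 CPM in IRE1PKO livers, against 16.9, 14.2 and 13.3 CPM in IRE1fl livers, a log2 fold change of 2.10 (SE 0.13). Tnfrsf19, a receptor of the TNF family, rose by 1.64 (SE 0.18), and Sox9, a factor of bile duct and progenitor cells, fell to 5.02 ± 1.84 CPM in IRE1PKO, against 12.2 ± 0.447 CPM in IRE1fl (SD, n = 3 each). These 3 calls held without each library in turn. Myc and Ccnd1, regulators of growth and the cell cycle picked once their values were known, rose by 1.19 and 0.81, the first lost without IRE1PKO replicate 1 and the second lost without every library other than IRE1PKO replicate 2 (adjusted p up to 0.148). Nkd1, an inhibitor of Wnt signalling, was at 0.09 (SE 0.19) and Sp5, a transcription factor, at -0.21 (SE 0.22) in log2 fold change, and neither passed. Sp5 ran from -0.40 without IRE1PKO replicate 2 to -0.055 without IRE1PKO replicate 3.

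**Figure D3:**
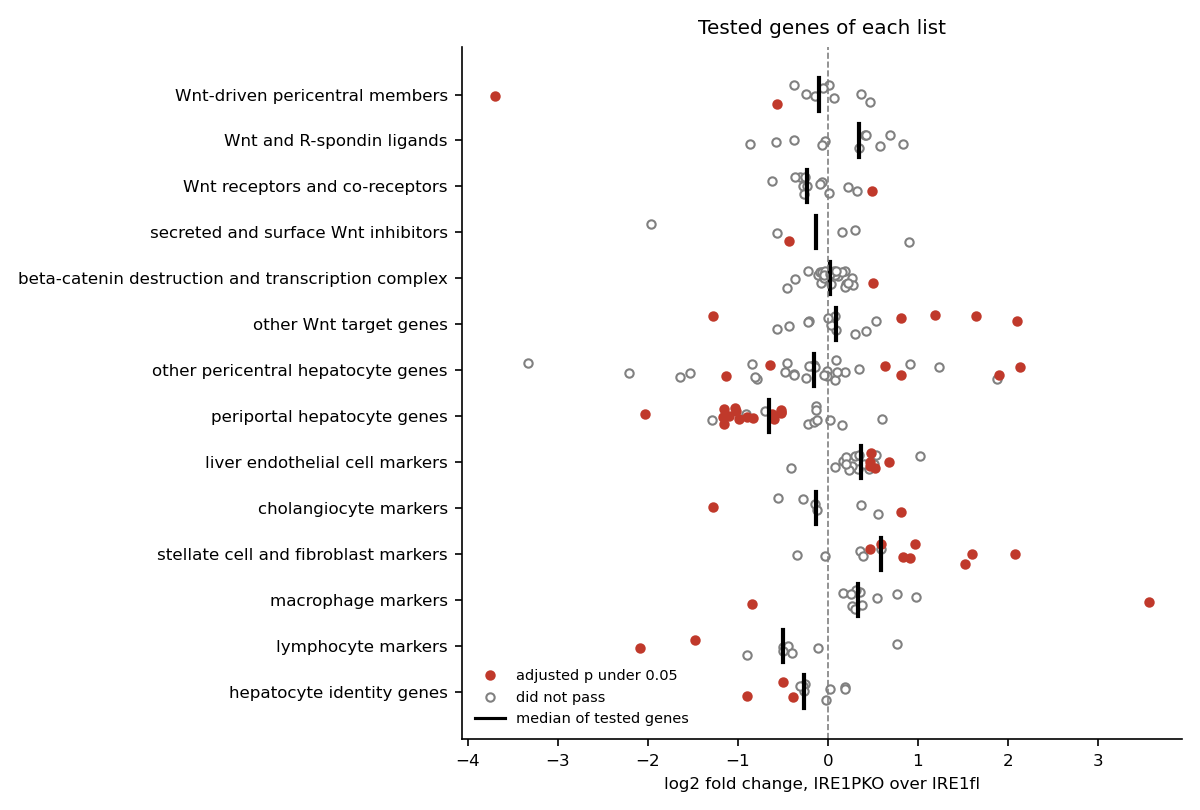
Log2 fold change, IRE1PKO over IRE1fl, of every tested gene of the 10 members and of each list of pathway, zonation and cell type genes. Each point is a gene, filled red where it passed the threshold over all genes, and the black bar is the median of the list. The members centre on -0.10, other pericentral genes on -0.15 and periportal genes on -0.66.

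Pericentral genes outside the members spread widely in both directions. The median log2 fold change of the 33 tested was -0.15, with a range of -3.33 to 2.14. Of them 4 rose and 2 fell, against 5.68% higher and 3.86% lower over all tested genes. These counts depended on the setting: 6 were higher and 7 lower by the DESeq2 Wald test, 5 higher and 5 lower with limma-voom or without robust fitting, and 4 higher and 8 lower with the replicate block. With a library left out the counts are given with higher genes before lower ones. They were 2 and 1 without IRE1PKO replicate 1, 2 and 7 without IRE1PKO replicate 2, and 3 and 0 without IRE1PKO replicate 3. They were 5 and 3 without IRE1fl replicate 1, 2 and 0 without IRE1fl replicate 2, and 4 and 0 without IRE1fl replicate 3. Gstm3, a glutathione transferase, had 112, 102 and 86.0 CPM in IRE1PKO livers, against 28.8, 18.4 and 20.8 CPM in IRE1fl livers (log2 fold change 2.14, SE 0.18), though reads may be split uncertainly among the similar Gstm genes. Cldn2, a tight junction protein, had 146, 123 and 145 CPM in IRE1PKO livers, against 74.0, 81.4 and 79.5 CPM in IRE1fl livers (log2 fold change 0.81, SE 0.10). Both calls held without each library in turn. Gstm1, named after its values were seen, also rose, a call lost without IRE1PKO replicate 1, IRE1PKO replicate 2, IRE1fl replicate 2 or IRE1fl replicate 3 (adjusted p up to 0.12). The fourth higher call was Tuba8, with 24, 18 and 57 counts in IRE1PKO livers, against 8 in each IRE1fl library. Tuba8 passed the filter on low counts through its IRE1PKO libraries alone, so that it had to differ, and its call was lost without each library in turn. Cyp1a2, a cytochrome P450 that depends on beta-catenin and on the aryl hydrocarbon receptor, had 127, 263 and 170.3 CPM in IRE1PKO livers, against 373, 413 and 441 CPM in IRE1fl livers. Its log2 fold change was -1.13 (SE 0.26, adjusted p = 0.0452), a call lost without IRE1PKO replicate 3 or any one IRE1fl library (adjusted p up to 0.156). Hpd, an enzyme of tyrosine breakdown, fell by 0.64 on the log2 scale (SE 0.16), a call kept without IRE1PKO replicate 2 and lost without each of the other 5 libraries (adjusted p up to 0.126).

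Cyp2e1 and Oat did not pass. Cyp2e1, the ethanol-inducible cytochrome P450, averaged 6169 ± 1263 CPM in IRE1PKO and 6869 ± 864 CPM in IRE1fl (SD, n = 3 each). Oat, ornithine aminotransferase, shares the innermost zone with Glul and had 457, 776 and 442 CPM in IRE1PKO livers, against 649.6, 833 and 822 CPM in IRE1fl livers (log2 fold change -0.46, SE 0.23, adjusted p = 0.266). Without IRE1PKO replicate 2, the high IRE1PKO library, the log2 fold change of Oat was -0.77 and passed (adjusted p = 0.0116). Glul and Oat thus lay on opposite sides of 0, and neither passed in the fit over all libraries.

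Periportal genes, the opposite zone, are given for scale. Of 26 tested, 15 fell, against 3.86% of all tested genes, and the median of the list was -0.66. Cps1, the entry enzyme of the urea cycle, had 1386, 2016 and 1961 CPM in IRE1PKO livers, against 3836, 3646 and 4466 CPM in IRE1fl livers. Asl and Cyp2f2 fell by 0.83 and 1.02 on the log2 scale. These 3 calls held without each library in turn, while periportal calls in either direction numbered 8 to 16 with a library left out and were fewest without IRE1PKO replicate 1. The difference between the members and the periportal list was not tested.

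Markers of other liver cells also moved. Of 13 stellate cell and fibroblast markers 8 rose, against 5.68% of all tested genes. The summed level of the 13 was 451 to 485 CPM in IRE1PKO livers and 243 to 282 CPM in IRE1fl livers. Macrophage markers summed to 463 to 619 CPM in IRE1PKO and 373 to 514 CPM in IRE1fl. Of 12 tested, Gpnmb was called higher and Marco lower, against 5.68% higher and 3.86% lower over all tested genes. A positive log2 fold change was seen for 11 of the 12, with a median of 0.33, and Marco was the exception. An unadjusted edgeR p under 0.05 was found for 7 of the 12, against 25.0% of all tested genes. Gpnmb had 1.72, 2.31 and 3.64 CPM in IRE1PKO, against 0.360, 0.170 and 0.108 CPM in IRE1fl. It passed the filter on low counts through its IRE1PKO libraries, where it is high, and its call carries that limit. Of 8 tested cholangiocyte markers Spp1 rose and Sox9 fell, and the 11 listed summed to 59.7 to 70.0 CPM in IRE1PKO and 55.0 to 59.1 CPM in IRE1fl. Lymphocyte markers summed to 5.88 to 8.09 CPM in IRE1PKO and 12.3 to 16.0 CPM in IRE1fl, with Cd4 and Jchain lower among 9 tested. Among the hepatocyte identity genes Serpina1a and Fah fell, with log2 fold changes of -0.90 and -0.49. Some members, such as Tcf7l2, are expressed in several of these cell types, and the part of the other cells in the values of the members was not tested.

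**Figure D4:**
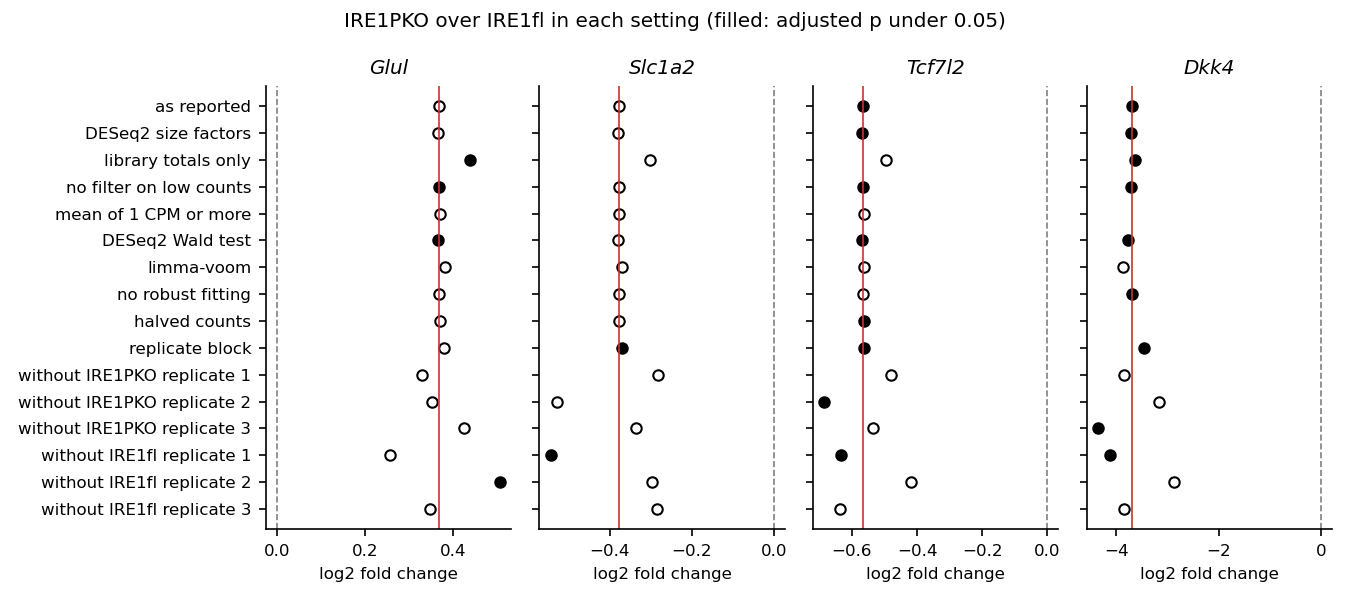
Log2 fold change of Glul, Slc1a2, Tcf7l2 and Dkk4, IRE1PKO over IRE1fl, as reported (top row, its value carried down as a red line) and under each alternative setting, including each library left out. Filled points passed an adjusted p of 0.05, and a setting that gave Dkk4 no value is blank. The direction of all 4 genes was kept in every setting drawn, and the call of each changed in at least 2 settings.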

How the data were processed

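Polyadenylated liver RNA was sequenced in 6 libraries. The authors deposited raw counts for each gene symbol, 1 column a library. The submitters' processing notes name the build mm10, while the aligner, counter, strand setting and annotation were not found in the labels. Among counts from 1 to 8, even values were 2.58 to 3.19 times as frequent as odd ones, so both mates of a pair may have been counted, and intervals and floors from counts may be too narrow.

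Columns were matched to samples by genotype and replicate number. Genes were filtered with edgeR's filterByExpr, scaled by TMM and tested two-sided with edgeR 4.0.16 (R 4.3.3, quasi-likelihood, robust), with Benjamini-Hochberg adjustment over 14954 genes. Log2 fold changes are IRE1PKO over IRE1fl. With 3 libraries a group, no exact permutation p is smaller than 0.1. Libraries of a group differed beyond counting noise, and none was a copy. Coordinates are RefSeq's (GRCm38.p6). The steps were tested on simulated data. Alternatives used DESeq2 1.42.0 and limma 3.58.1 among others.

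The members, lists and named genes were chosen with earlier results of these data known. Named were the members, Ern1, 15 fixed pathway genes and up to 3 called genes of smallest p per list, and not each is printed. Stab2, Cdh5, Wnt4, Wnt5b and Tuba8, and the genes said to be so in the text, were named after their values were seen. No test was made over a list.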

Additional observations from a re-analysis of the deposited data

How the results depend on the processing

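Of the alternatives, the number of members called was 2 in the fit reported. It was 0 with a filter at a mean of 1 CPM (2 of 9 tested members had an unadjusted p under 0.05) and 0 with limma-voom (4 of 10), 1 without robust fitting (Dkk4), and 1 with halved counts (Tcf7l2). With each library left out it ran from 0 to 3. It was 0 without IRE1PKO replicate 1 (2 at an unadjusted p under 0.05) or IRE1fl replicate 3 (3), and without IRE1fl replicate 2 the single call was Glul, as higher. Dkk4 had no value at a mean of 1 CPM or with halved counts, where it was not tested. The median of the members ran from -0.14 to -0.03. The count over the Wnt pathway lists was 8, and 17 by the DESeq2 Wald test, 14 with a replicate block, and 3 to 11 with a library left out. Genes called over the whole table numbered 653 to 1484 with a library left out. With library totals as the only scaling, 1148 genes were higher and 415 lower, a shift of the median of all genes of 0.07, and 2 members were called, Dkk4 lower and Glul higher. Ern1 was -0.37 with that scaling and -0.44 with limma-voom, short of the threshold in both, and ran from -0.53 to -0.35 with a library left out. Signs turned only for values close to 0 that never passed: Znrf3 was 0.011 with library totals only, and with a library left out Axin2 ran from -0.074 to 0.17, Lgr5 from -0.090 to 0.24, Lrp6 from -0.057 to 0.064 and Nkd1 from -0.10 to 0.25. The causes were not tested.

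The replicate numbers are shared only as numbers. Deviations of same-numbered libraries from their group means correlated across genes at 0.10, -0.03 and 0.15, and not every library correlated best with its own number. With the replicate block 3 members were called, Dkk4, Tcf7l2 and Slc1a2, and 1865 genes in all. Depth limits Dkk4 most, since its IRE1PKO libraries held 10 counts in sum.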
